A study of Mus musculus with 12 samples.

Results

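H3K9/14ac, the acetylated form of histone H3 that marks promoters and enhancers in use, was examined over 8 genes of the phosphoinositide 3-kinase (PI3K) pathway in cultured mouse T helper 17 (Th17) cells. The genes were Pik3cd, Pik3r1, Pik3r5, Pik3ip1, Akt1, Inpp5d, Inpp4b and Phlpp1. They were taken by name, 8 of 21887 protein-coding genes annotated in RefSeq GRCm38.p6. A tested region or peak belonged to a gene when it lay within the gene span or 5 kb to either side, which gave 118 of the 40909 regions in the authors' deposited table. The tested cells came from C57BL/6 mice of the genotype Slc2a3-fl/fl Cd4-cre (KO), in which Cre driven by the Cd4 promoter deletes the gene of the glucose transporter GLUT3 in T cells, and were set against wild-type C57BL/6 cells (WT). Cre status of the WT mice (not given in the sources used here) limits this comparison. All cells were naive CD4 T cells kept for 3 days under Th17 conditions and then stimulated for 3 h with PMA and ionomycin, with Bref A and Monensin present. Each genotype had 3 ChIP libraries, and all 6 were barcoded and immunoprecipitated as 1 pool. No label says that the 3 libraries of a genotype came from separate mice, so the spread between libraries may be technical, and p-values and FDRs measure only that spread.

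PI3K enzymes phosphorylate the membrane lipid PIP2 to PIP3, which recruits and activates the kinase AKT downstream of antigen receptors, costimulatory receptors and cytokine receptors. The delta isoform, made of the catalytic subunit p110delta and a regulatory subunit such as p85alpha, is the main form used by the T cell receptor, while the gamma isoform serves G protein-coupled receptors such as chemokine receptors. Inositol phosphatases remove phosphates from these lipids, and further phosphatases act on AKT itself.

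The KO libraries were shallower than the WT libraries. Fragments per base, as the peak lists imply, averaged 1.85, 2.29 and 1.92 in KO replicates 1 to 3, against 3.99, 3.48 and 2.97 in WT replicates 1 to 3 (ratio of means 0.580, two-sided exact permutation p = 0.1, the lowest that 3 against 3 libraries can give). Peaks covered 53.7, 58.4 and 55.2 Mb of the genome in KO, against 70.5, 65.2 and 66.5 Mb in WT. KO replicate 3 stood apart by 11 peaks on chromosome Y, against 1 or 2 in every other library, and the 8 genes are autosomal. Over the targeted gene Slc2a3, peaks covered 3822, 5427 and 6128 bp in KO, against 12507, 12443 and 12461 bp in WT, and 8 of its 9 tested regions were called lower in KO in the authors' deposited table. All 7 T cell identity markers had peaks in every library, and so did 4 of 5 Th17 markers. The summed peak cover of the 5 Th17 markers was 55305 to 69887 bp in KO, against 160769 to 189925 bp in WT, and that of the 7 T cell identity markers was 63603 to 66202 bp in KO, against 89159 to 93493 bp in WT. Among markers of other cells, the defining B cell gene Ms4a1, the CD8 and NK cell genes Cd8a, Klrb1c and Ncr1, the myeloid gene Lyz2 and the erythroid genes Gata1 and Hbb-bt had no peak in any library. The summed peak cover of 5 myeloid markers, 4 of which had peaks in every library, was 8009 to 9917 bp in KO, against 13728 to 15022 bp in WT. The summed cover of 5 B cell markers was 5840 to 7697 bp in KO, against 8264 to 9610 bp in WT. For 5 CD8 and NK cell markers it was 1544 to 1833 bp in KO, against 1681 to 4078 bp in WT, and for 3 erythroid markers 1203 to 1787 bp in KO, against 2081 to 2627 bp in WT. In each of these 3 lists 1 gene had peaks in every library. The part of such cells, and of the lower Th17 and T cell marker cover, in the results was not tested.

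Inpp4b carried most of the loss. Across the 8 genes, 76 of 118 regions were called lower in KO (64.4%; FDR under 0.05 in the authors' deposited table), where 46.3% of all regions were, and 54 of those 76 belonged to Inpp4b. Without Inpp4b, the authors' deposited table called 22 of 49 regions lower (44.9%), a share near that of all regions. Only 2 of 118 regions, at Inpp5d and Pik3r5, were called higher in the authors' deposited table, against 12.7% of all regions. The median log2 fold change, KO over WT, was -0.995 over the 118 regions, -0.60 without Inpp4b and -0.62 over all regions of the authors' deposited table. Each value of the table is that of the best 150 bp window of a region, and scaling libraries by mean coverage in place of the authors' scaling would add 0.31 to every value. No called region over the 8 genes changes sign at that scale. Fewer cells carrying the mark and less of the mark per cell cannot be told apart in these bulk samples.

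Peak presence was near the shares of all regions. A peak was present in 0 of 3 KO and 3 of 3 WT libraries at 9 of the 118 regions (7.63%), against 6.67% of all regions. Of these 9, 4 were in Inpp4b, 3 in Pik3r5 and 1 each in Pik3cd and Pik3r1. In the single-read peak lists none of the 9 had a KO peak, but most had a peak in fewer than 3 WT libraries. The single-read lists taken alone gave 8 regions of this pattern. Without KO replicate 2 the count of 9 became 17. The reverse pattern, 3 of 3 KO and 0 of 3 WT libraries, held at 3 regions (2.54%), against 2.6% of all regions. Of these 3, 2 were in Pik3r1 and 1 in Inpp5d. The plot of tested regions by gene shows the spread within each gene.

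**Figure D1:**
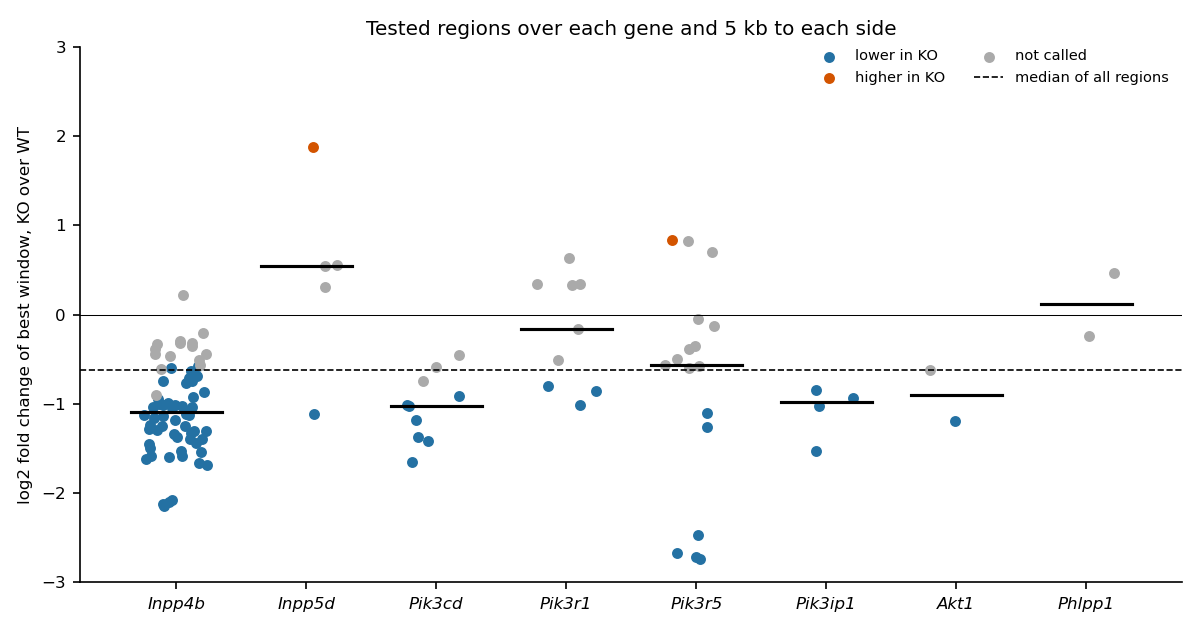
Log2 fold change (KO over WT, the authors' deposited table) of every tested region over the 8 genes and 5 kb to each side, with blue for called lower, orange for called higher, grey for not called, a bar for each gene's median and a dashed line for the median of all regions (-0.62). Inpp4b holds 69 of the 118 points and a median of -1.09, the far-end block of Pik3r5 lies between -2.47 and -2.73, and the highest point is the Inpp5d region at 1.88.

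The bp covered by paired-end peaks gave a measure per library. In 3 genes, Inpp4b, Pik3cd and Pik3r5, every KO library lay below every WT library, a pattern seen in 41.3% of all genes with a peak. In 2 genes, Inpp5d and Phlpp1, every KO library lay above every WT library, against 6.18% of all genes. In Pik3r1, Pik3ip1 and Akt1 the groups overlapped. Since peaks covered less of the genome in KO, cover was also set relative to the Mb covered in the same library. On that scale Inpp4b still lay lower in KO, with 1920, 2115 and 1967 bp per Mb in KO against 2523, 2492 and 2573 bp per Mb in WT, and Inpp5d and Phlpp1 still lay higher. The KO over WT ratio of cover per Mb was 0.99 for Pik3cd and 0.92 for Pik3r5, with overlapping groups.

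**Figure D2:**
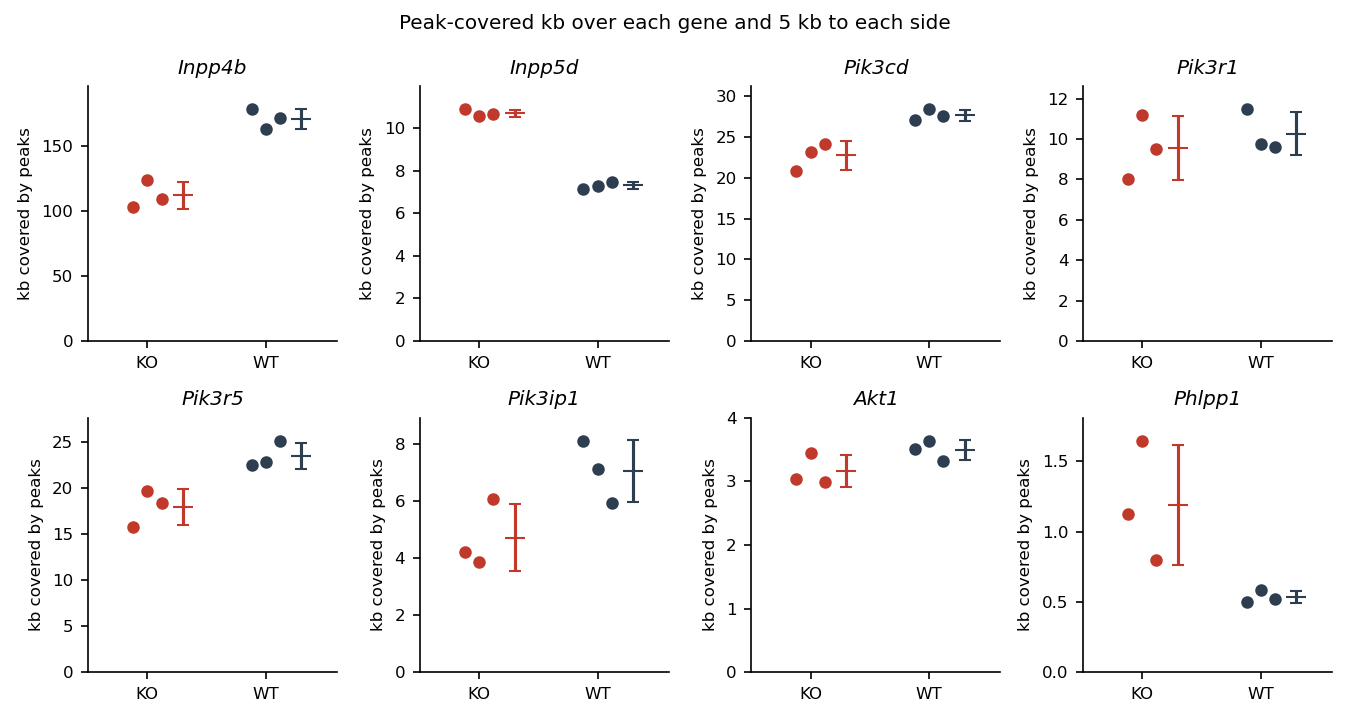
Kilobases covered by paired-end peaks over each gene and 5 kb to each side (vertical axes start at 0), with a point per library, KO left of WT, and the mean with its SD beside the points (n = 3 per genotype). All KO points lie below all WT points for Inpp4b, Pik3cd and Pik3r5, all lie above for Inpp5d and Phlpp1, and the groups overlap for Pik3r1, Pik3ip1 and Akt1.

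Pik3cd encodes p110delta, the catalytic subunit of the leukocyte isoform. The gene (chr4:149649168-149702566, minus strand) was lower in KO at 7 of 10 regions in the authors' deposited table and higher at none, with a median log2 fold change of -1.02. Peaks covered 20800, 23215 and 24193 bp in KO, against 27048, 28408 and 27537 bp in WT. The groups did not overlap, and the mean was 22736 ± 1746 bp in KO and 27664 ± 689 bp in WT (SD, n = 3 each; exact permutation p = 0.1). Its outer start lay in a broad domain of 18150 bp (chr4:149689201-149707350), a width reached by 55 of all regions. That domain was called lower with -1.66 (FDR 2.85e-10) in the authors' deposited table, with 46 of its 121 windows down. Its tallest peak stood at 108, 115 and 96.3 times the mean coverage in KO, against 110, 125 and 115 times in WT. These heights overlapped (exact permutation p = 0.2), so the fall called in the table lay in part of the domain and its summit did not separate the genotypes. Inside the gene, about 34 kb from the outer start, 3 narrow regions between 149663701 and 149666400 were called lower, with -1.03, -1.18 and -1.37 in the authors' deposited table. Peaks over the largest of them covered 0, 0 and 353 bp in KO, against 850, 1088 and 761 bp in WT. An annotated inner start at 149663316 lies 385 bp from this group. No KO library had a peak within 1 kb of that start, against 3 of 3 WT libraries, with heights of 17.3, 19.5 and 12.1 times the mean coverage in WT. A further annotated start at 149676089 had no peak in any library. The highest value in the gene was -0.45 (FDR 0.191), at chr4:149687401-149687850, and the region beyond the far end, shared with Clstn1, had -0.74 (FDR 0.0781), both not called in the authors' deposited table.

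Pik3r1 encodes the regulatory subunits p85alpha, p55alpha and p50alpha, which hold the catalytic subunit stable and bring it to phosphotyrosines. The gene (chr13:101680761-101768217, minus strand) was called lower at 3 of 9 regions and higher at none in the authors' deposited table, with a median of -0.16. That median is the 1 of the 8 gene medians that changes sign at coverage scaling, to 0.15. Peaks covered 8018, 11178 and 9508 bp in KO, against 11473, 9729 and 9594 bp in WT, and the groups overlapped (exact permutation p = 0.4). The difference in means, KO minus WT, was -697 bp, and 77.7 bp without KO replicate 1. The sequences of the 2 annotated starts are shown because the starts differed. They are the 250 bases upstream of each start from RefSeq (GRCm38.p6, minus strand, printed 5′ to 3′), at chr13:101768218-101768467 for the outer start and chr13:101692631-101692880 for the inner start, with GC boxes (GGGCGG on either strand) in capitals.
Pik3r1 outer start: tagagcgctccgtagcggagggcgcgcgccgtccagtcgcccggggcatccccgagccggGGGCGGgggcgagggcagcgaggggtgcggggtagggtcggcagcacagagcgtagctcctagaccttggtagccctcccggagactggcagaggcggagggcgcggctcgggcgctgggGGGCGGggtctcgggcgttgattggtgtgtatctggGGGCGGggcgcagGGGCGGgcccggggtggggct
Pik3r1 inner start: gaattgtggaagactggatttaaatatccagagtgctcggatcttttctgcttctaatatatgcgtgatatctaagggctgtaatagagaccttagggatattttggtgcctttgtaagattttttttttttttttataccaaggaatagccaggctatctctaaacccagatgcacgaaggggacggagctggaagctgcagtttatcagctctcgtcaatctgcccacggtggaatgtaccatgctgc
The outer sequence has 76.4% G and C, 30 CpG and 4 GC boxes, and the inner sequence has 42.4% G and C, 6 CpG and no GC box. The median of 32851 annotated promoters is 52.4% G and C and 6 CpG, and 32.7% hold a GC box.

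The outer start of Pik3r1 lay in a region called lower (chr13:101766601-101769000), with -0.80 (FDR 0.00521) and 10 of 16 windows down in the authors' deposited table. Its peak stood at 47.0, 46.3 and 38.0 times the mean coverage in KO, against 35.6, 41.6 and 34.3 times in WT. These relative heights overlapped and averaged higher in KO, so the direction at this start differed between the table and the height over mean coverage. Beside the inner start, peaks were present in 3 of 3 KO and 0 of 3 WT libraries at chr13:101691301-101691750 and chr13:101691901-101692500. The first of these had the highest value in the gene, 0.64 (FDR 0.102), and the other 0.35 (FDR 0.397), and neither was called in the authors' deposited table. In the single-read peak lists each of the pair had a peak in 1 KO library and in no WT library. The region nearest upstream of that start (chr13:101692651-101693400) had peaks in 2 of 3 KO and 1 of 3 WT libraries and was not called, with 0.34 (FDR 0.716) in the authors' deposited table. The one after it (chr13:101693701-101695050) had peaks in every library, at 31.4, 25.8 and 38.0 times the mean coverage in KO, against 23.8, 24.1 and 23.2 times in WT. The groups did not overlap there (exact permutation p = 0.1), and its value in the authors' deposited table was -0.16 (FDR 0.990). The region of lowest FDR in Pik3r1, at chr13:101758951-101759400, was lower with -1.01 (FDR 0.004) in the authors' deposited table. Another one at chr13:101733451-101733900 was lower with -0.86 (FDR 0.0148) in the authors' deposited table and had a peak in no KO and every WT library. In the single-read peak lists it had a peak in 1 WT library and in no KO library.

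Pik3r5 encodes p101, a regulatory subunit of the gamma isoform. The gene (chr11:68432125-68497849, plus strand) was lower at 6 and higher at 1 of 17 regions in the authors' deposited table, with a median of -0.57. Peaks covered 15768, 19681 and 18334 bp in KO, against 22500, 22783 and 25125 bp in WT. The groups did not overlap, and the mean was 17928 ± 1988 bp in KO and 23469 ± 1441 bp in WT (SD, n = 3 each; exact permutation p = 0.1). The difference of -5542 bp was -3179 bp with single-read peaks, and -2938 bp over the gene span alone, where the exact permutation p was 0.2. At the start, regions at chr11:68431501-68433750 and chr11:68433901-68437200 were lower with -1.26 (FDR 9.23e-06) and -1.10 (FDR 2.69e-05) in the authors' deposited table. The tallest peak reaching within 1 kb of the start stood at 31.4, 24.5 and 26.0 times the mean coverage in KO, with summits in the first region. In WT it stood at 43.9, 43.4 and 46.1 times, with summits in the second region, so unlike summits are compared. In the second region the KO heights were 36.8, 34.9 and 46.35 times the mean coverage, and the groups overlapped (exact permutation p = 0.4).

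The steepest loss of the 8 genes was a block at the far end of Pik3r5. Between 68495401 and 68502150, 4 of 4 regions were lower with -2.47 to -2.73 in the authors' deposited table. Peaks covered 683, 1176 and 986 bp of the block in KO, against 5574, 4772 and 4421 bp in WT. The mean was 948 ± 249 bp in KO and 4922 ± 591 bp in WT (SD, n = 3 each; ratio 0.193, exact permutation p = 0.1), and the groups were far apart. The block was chosen after its values were seen, so this p-value gives no separate test of the loss. The central region (chr11:68498551-68501100) lies outside both genes, past the end of the Pik3r5 span at 68497849 and before Pik3r6. It had the lowest FDR of all 118 regions, 5.18e-30, with -2.67 and 17 of 17 windows down in the authors' deposited table. Its peak stood at 15.7, 14.4 and 15.6 times the mean coverage in KO, against 79.2, 71.2 and 80.5 times in WT. The other 3 regions had peaks in no KO and every WT library. In the single-read peak lists these 3, in order of position, had peaks in 1, 3 and 2 WT libraries and in no KO library. The block ends 869 bp before the span of Pik3r6, which encodes p84, the alternative gamma regulatory subunit. Of its 4 regions, 2 lie past the end of the Pik3r5 span and also within 5 kb of Pik3r6. In the middle of Pik3r5 a region (chr11:68467651-68469150) went the other way, with 0.84 (FDR 0.00979) and 8 of 10 windows up in the authors' deposited table. Its peak stood at 21.6, 26.2 and 24.5 times the mean coverage in KO, against 11.03, 12.35 and 12.12 times in WT, with no overlap (exact permutation p = 0.1).

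Pik3ip1 encodes a transmembrane protein that restrains PI3K in T cells. All 4 of its regions (gene at chr11:3319241-3342971, plus strand) were lower in the authors' deposited table, with -0.84 to -1.53. The lowest FDR, 1.85e-08, and the lowest value were at chr11:3332551-3336900, just inside the start, with 26 of 29 windows down in the authors' deposited table. The start itself (chr11:3330001-3330750) was lower with -0.93 (FDR 0.000659) in the authors' deposited table. Peaks covered 0, 0 and 631 bp of it in KO, against 665, 631 and 347 bp in WT. KO replicate 3 was the KO library with a peak there, and it lay among the WT libraries. Over the whole gene, peaks covered 4219, 3873 and 6080 bp in KO, against 8117, 7136 and 5935 bp in WT. The groups overlapped through KO replicate 3 and WT replicate 3 (exact permutation p = 0.2). The difference, KO minus WT, was -2339 bp, and -3017 bp without KO replicate 3. Heights of the tallest peak reaching within 1 kb of the start also overlapped. They were 43.8, 38.4 and 66.2 times the mean coverage in KO, against 79.7, 73.2 and 52.5 times in WT. The summits lay in chr11:3332551-3336900 in KO replicates 1 and 2 and WT replicate 2. In the remaining libraries they lay in chr11:3330901-3332400, so these heights mix summits of different regions. The region beyond the far end lies in the neighbouring gene Limk2 and was lower with -0.84 (FDR 0.0171) in the authors' deposited table.

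Akt1 encodes the kinase that PIP3 recruits and that phosphorylates FOXO factors and other targets. The gene (chr12:112653821-112674884, minus strand) had 2 tested regions. The region over both annotated starts (chr12:112673101-112675500) was lower with -1.19 (FDR 3.24e-06) and 12 of 16 windows down in the authors' deposited table. Its peak stood at 29.2, 31.0 and 30.2 times the mean coverage in KO, against 31.3, 44.5 and 43.4 times in WT. Every KO library lay just below every WT library (exact permutation p = 0.1), with WT replicate 1 next to the KO values. The other region lies upstream at Zbtb42 and was not called, with -0.62 (FDR 0.123) in the authors' deposited table. Peaks covered 3039, 3451 and 2991 bp in KO, against 3503, 3639 and 3323 bp in WT, and the groups overlapped (exact permutation p = 0.2). The difference of -328 bp was -9 bp over the gene span alone and -898 bp with single-read peaks. The sequence upstream of the outer start is shown as the 1 promoter of the 8 genes with a match to a searched motif other than the GC box (RefSeq, GRCm38.p6, minus strand, 5′ to 3′, chr12:112674885-112675134), with the matches in capitals.
Akt1 outer start: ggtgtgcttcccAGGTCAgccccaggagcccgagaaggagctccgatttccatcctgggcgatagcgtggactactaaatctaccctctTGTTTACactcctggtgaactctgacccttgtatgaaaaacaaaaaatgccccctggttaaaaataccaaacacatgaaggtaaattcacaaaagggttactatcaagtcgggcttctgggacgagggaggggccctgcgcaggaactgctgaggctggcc
The capitals mark a nuclear receptor core site (AGGTCA) and a FOXO motif (GTAAACA, here on the other strand). A FOXO motif was in 3.17% and a core site in 14% of the 32851 promoters of the same length. The other motifs searched on both strands were AP-1 (TGANTCA, 6.75% of promoters), ETS (CCGGAAG, 6.91%) and STAT (TTCNNNGAA, 7.02%), and none matched in the 12 promoters of the 8 genes. These matches describe letters in this window and say nothing of binding.

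Inpp5d encodes SHIP1, the 5-phosphatase that turns PIP3 into PI(3,4)P2 in blood cells. Its called regions went both ways, and its cover was higher in KO. Peaks over the gene (chr1:87620312-87720510, plus strand) covered 10882, 10553 and 10658 bp in KO, against 7147, 7296 and 7476 bp in WT. The groups did not overlap, with 10698 ± 168 bp in KO and 7306 ± 165 bp in WT (SD, n = 3 each; ratio 1.46, exact permutation p = 0.1). Of 5 tested regions, 1 was called higher and 1 lower in the authors' deposited table, with a median of 0.54. The higher region lay inside the gene, 30.8 kb from the start (chr1:87650551-87651750), with 1.88 (FDR 2.28e-11) and 8 of 8 windows up in the authors' deposited table. Peaks covered 1157, 726 and 726 bp of it in KO, against 0 bp in each WT library. The KO peaks stood at 23.8, 30.1 and 28.1 times the mean coverage, and the single-read lists also had a peak there in 3 of 3 KO and 0 of 3 WT libraries.

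At the Inpp5d start (chr1:87619801-87624450) the table and the heights differed in direction. The region was called lower with -1.11 (FDR 0.00111) in the authors' deposited table, by 4 of its 31 windows. The tallest peak stood at 90.8, 86.0 and 88.5 times the mean coverage in KO, against 72.0, 77.0 and 67.3 times in WT. Every KO library lay above every WT library (exact permutation p = 0.1). In the next region (chr1:87624901-87627300), where the KO peaks ran on to 87628553 in replicates 1 and 3, the value was 0.56 (FDR 0.0973), not called in the authors' deposited table. The remaining regions had 0.31 (FDR 0.720) and 0.54 (FDR 0.103) in the authors' deposited table. With single-read peaks the difference in cover was 998 bp, against 3391 bp with paired-end peaks.

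Inpp4b encodes the 4-phosphatase that removes the next phosphate, from PI(3,4)P2. The gene spans 792 kb (chr8:81342266-82134312, plus strand) and held 69 tested regions, the 3rd highest number of any protein-coding gene. By the authors' deposited table, 54 of the 69 were lower and none higher, 68 had a negative value, and 546 of 848 windows were down against 0 up. Of its regions 78.3% were lower, against a median of 37.1% over the 94 genes with at least 20 regions in the authors' deposited table, and 6 of those genes had a larger share. Peaks covered 103081, 123522 and 108625 bp in KO, against 177942, 162552 and 171103 bp in WT. The groups were well apart, with 111743 ± 10571 bp in KO and 170532 ± 7711 bp in WT (SD, n = 3 each; ratio 0.655, exact permutation p = 0.1). Using equal numbers of the strongest peaks per library, the difference was -57276 bp, against -58790 bp with all peaks.

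The start of Inpp4b lay in a region of 4500 bp (chr8:81341401-81345900) that was lower with -1.45 (FDR 2.91e-08) in the authors' deposited table. Its peak stood at 45.4, 49.8 and 43.8 times the mean coverage in KO, against 60.2, 65.8 and 62.0 times in WT, with no overlap (exact permutation p = 0.1). The 250 bases upstream of the annotated start are shown because this is the only tested region in the first 100 kb of the gene (RefSeq, GRCm38.p6, plus strand, 5′ to 3′, chr8:81342312-81342561), in lower case since none of the searched motifs matched.
Inpp4b start: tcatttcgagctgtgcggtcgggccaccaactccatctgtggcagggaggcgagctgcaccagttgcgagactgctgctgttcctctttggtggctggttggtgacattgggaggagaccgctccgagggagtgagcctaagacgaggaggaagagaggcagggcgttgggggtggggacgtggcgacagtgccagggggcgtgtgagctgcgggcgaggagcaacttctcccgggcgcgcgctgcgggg
The sequence has 66% G and C and 19 CpG, against medians of 52.4% and 6 over all promoters, and it has no GC box.

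Within the gene the loss was uneven. Between 100 and 400 kb from the start, 26 of 28 regions were lower, with a median of -1.31 in the authors' deposited table. Peaks covered 14640, 22800 and 17032 bp of that stretch in KO, against 56665, 46176 and 50302 bp in WT, and the groups were far apart (ratio 0.356, exact permutation p = 0.1). Between 400 and 600 kb, where the acetylation was densest, 25 of 38 regions were lower, with a median of -0.88 in the authors' deposited table. Peaks covered 84246, 95960 and 87997 bp there in KO, against 113116, 109928 and 114194 bp in WT, again without overlap (ratio 0.795, exact permutation p = 0.1). Of the cover from 100 to 600 kb, the nearer stretch held 14.8%, 19.2% and 16.2% in KO, against 33.4%, 29.6% and 30.6% in WT. Every KO share lay below every WT share (exact permutation p = 0.1). The 2 stretches were chosen after the positions and values of the regions were seen, so these p-values do not test that choice.

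**Figure D3:**
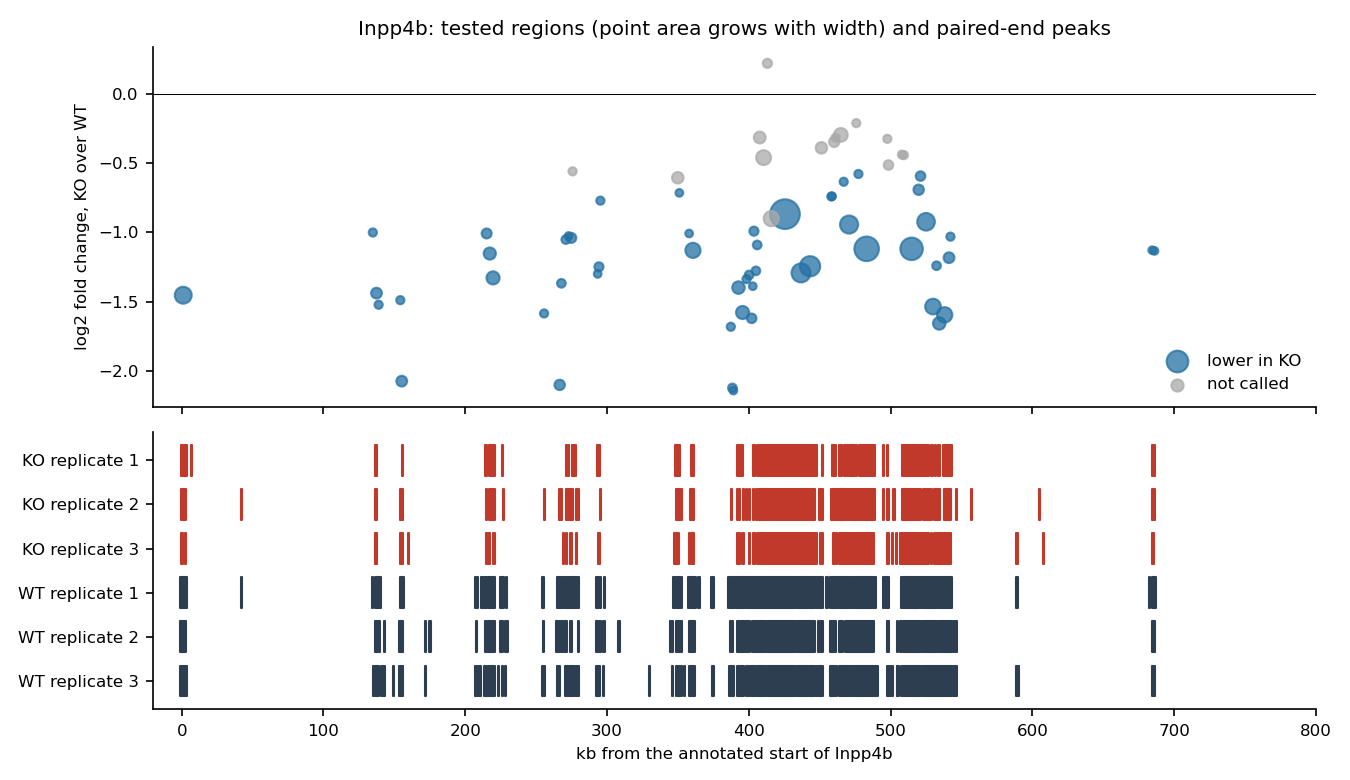
Inpp4b along its length in kb from the annotated start, with the log2 fold change of each tested region in the authors' deposited table above (blue called lower, grey not called, point area by width) and the paired-end peaks of the 3 KO and 3 WT libraries below. Peaks between 100 and 400 kb are sparser in the KO libraries, while the dense stretch from 400 to 600 kb is present in all 6.

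Peak heights were compared next, over the 8 genes and by stretch of Inpp4b. They come from the same peaks as the cover and the stretches were chosen with values seen. They are therefore no separate test of the division. At 37 of the 118 regions all 6 libraries had a summit, and every KO height, relative to mean coverage, lay below every WT height at 11 and above at 7, or 29.7% and 18.9% of the 37, against 19.7% and 25.3% of all such regions. In the first 400 kb of Inpp4b, here with the start region included, every KO height lay below every WT height at 6 of 6 such regions. From 400 to 600 kb that held at 3 of 13, the reverse held at 2, and the groups overlapped at 8. Outside Inpp4b it held at 2 of 18, with the reverse at 5.

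The region of lowest FDR in Inpp4b (chr8:81497101-81498450) lay 155 kb from the start and was lower with -2.07 (FDR 5.83e-18) in the authors' deposited table. Peaks covered 323, 718 and 718 bp of it in KO, against 1350 bp in each WT library. Its peak stood at 14.6, 17.9 and 11.98 times the mean coverage in KO, against 42.6, 42.5 and 46.8 times in WT, far apart (exact permutation p = 0.1). The lowest value of the gene was -2.14 (FDR 5.38e-10), at chr8:81731551-81731850, in the authors' deposited table. The widest region, 15450 bp at chr8:81760351-81775800, was called lower with -0.87 (FDR 0.0277) on 17 of 103 windows in the authors' deposited table. Its summit was the tallest of the gene and stood higher in KO, at 191, 204 and 222 times the mean coverage in KO, against 173, 163 and 172 times in WT (exact permutation p = 0.1, no overlap). The highest value, 0.22 (FDR 0.995), was that of a region of 750 bp placed by its best window (chr8:81755551-81755700). That region lay before the widest one, with another tested region between them, and was not called in the authors' deposited table. Toward the far end, the last region (chr8:82028551-82028850), 686 kb from the start, was lower with -1.13 (FDR 0.0049) in the authors' deposited table. No library had a peak from 700 to 800 kb. With single-read peaks the difference in cover over the gene was -34227 bp.

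Phlpp1 encodes a phosphatase that dephosphorylates AKT. Neither of its 2 tested regions was called in the authors' deposited table, the start (chr1:106171651-106172850) with 0.47 (FDR 0.691) and the region before it with -0.24 (FDR 0.436). Peaks over the gene (chr1:106171869-106394245, plus strand) covered 1124, 1646 and 797 bp in KO, against 499, 582 and 519 bp in WT. The groups did not overlap, with 1189 ± 428 bp in KO and 533 ± 43.3 bp in WT (SD, n = 3 each; ratio 2.23, exact permutation p = 0.1). With single-read peaks the difference was 13.3 bp, against 656 bp with paired-end peaks (exact permutation p = 1 with single-read peaks). Without KO replicate 2 it was 427 bp with paired-end peaks. The peak at the start stood at 53.0, 38.4 and 50.0 times the mean coverage in KO, against 30.1, 38.2 and 33.3 times in WT. KO replicate 2 and WT replicate 2 were nearly equal, and the groups did not quite overlap (exact permutation p = 0.1). The sequence upstream of the start is shown because all acetylation over this gene of 222 kb lay at or just before the start (RefSeq, GRCm38.p6, plus strand, 5′ to 3′, chr1:106171619-106171868), with GC boxes on either strand in capitals.
Phlpp1 start: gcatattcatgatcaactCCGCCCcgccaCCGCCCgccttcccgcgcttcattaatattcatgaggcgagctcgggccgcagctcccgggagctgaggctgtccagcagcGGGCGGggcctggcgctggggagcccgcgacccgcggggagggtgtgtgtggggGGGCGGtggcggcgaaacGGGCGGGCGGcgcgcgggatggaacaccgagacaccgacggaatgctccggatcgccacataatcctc
It has 70% G and C, 31 CpG and 6 GC boxes, where neighbouring matches may share bases, the most GC boxes among the 12 promoters of the 8 genes. Of those 12 promoters, 6 held a GC box.

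Heights at the starts went in both directions. A peak was counted when it reached within 1 kb of a start, and its summit could lie further away. Such a peak was present in every library at 9 starts (the 2 Akt1 starts share a peak). Every KO height lay below every WT height at Inpp4b, Pik3r5 and Akt1. At Pik3r5 the KO and WT summits lay in different regions, so that separation compares unlike summits. Every KO height lay above every WT height at Inpp5d, the inner start of Pik3r1 and Phlpp1. At the inner start of Pik3r1 the summits lay in chr13:101693701-101695050, the region already described, more than 1 kb from that start. The groups overlapped at Pik3cd, the outer start of Pik3r1 and Pik3ip1, where the summits lay in different regions between libraries at Pik3ip1. Such separation was common over all regions with a summit in every library, where 19.7% lay below and 25.3% above. A share over all annotated starts was not computed. The median relative height over all peaks was itself higher in KO, with a mean of 21.2 in KO against 18.2 in WT (ratio 1.17), so the heights are read beside that shift.

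**Figure D4:**
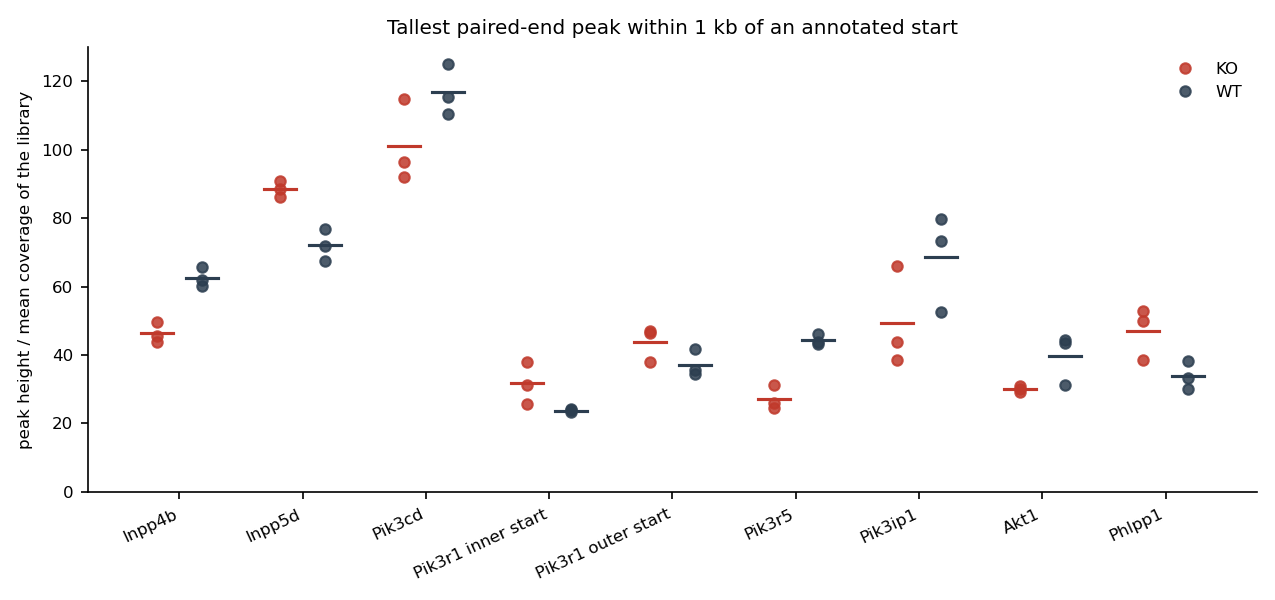
Height of the tallest paired-end peak within 1 kb of each annotated start, as a multiple of the library's mean coverage (axis from 0), with a point per library, KO left of WT, and a bar for each mean. KO points lie below WT points at Inpp4b, Pik3r5 and Akt1, and above them at Inpp5d, the inner Pik3r1 start and Phlpp1. At the other 3 starts they lie among them. A peak was counted when it reached within 1 kb, and its summit can lie further away, as at the inner Pik3r1 start. At Pik3r5 and Pik3ip1 the summits of the libraries lie in different regions.

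Each gene was then given the call of its region of lowest FDR. On that measure the authors' deposited table had 6 of the 8 genes lower and Inpp5d higher. It had 67.5% of 13157 genes lower and 11.8% higher, so the count of 6 of 8 is near the share of all genes. Of 41 further pathway genes in 8 role lists, 24 were lower, 4 higher and 13 not called, with a median of -0.79 against -0.88 over all genes, in the authors' deposited table.

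Among the other class I subunits the catalytic genes split. Pik3ca, which encodes p110alpha, had 4 higher regions and 1 lower of 14, the highest at 1.96 (FDR 5.86e-07), whereas Pik3cg, which encodes p110gamma, was lower at 4 of 6 regions, with -2.19 (FDR 8.52e-10) at the lowest FDR, in the authors' deposited table. Peaks over Pik3cg covered 5143, 6385 and 6120 bp in KO, against 9044, 9587 and 9556 bp in WT, without overlap. Of the regulatory genes, Pik3r6 was lower at 3 of 3 regions in the authors' deposited table. Of these, 2 lie in the block at the far end of Pik3r5, and the third, beyond the far end of Pik3r6 (chr11:68553901-68555100), had -0.91 (FDR 0.000514) in the authors' deposited table. Pik3r2, which encodes p85beta, had -1.10 (FDR 1.99e-05) in the authors' deposited table. The 3 genes of the gamma isoform on the lists, Pik3cg, Pik3r5 and Pik3r6, were each called lower at their lowest FDR by the authors' deposited table. The last pair were called by the same region, which lies between them, and 67.5% of all genes were lower on this measure. In class II and III, 3 of 4 genes were lower, near that share of all genes. Pik3c2a had -0.87 and also 1 higher region (0.82), and Pik3c3 had -0.92, in the authors' deposited table.

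All 5 adaptor and receptor genes that feed PI3K were called lower at their lowest FDR by the authors' deposited table, where 67.5% of all genes were. Icos, a costimulatory receptor that binds PI3K, had -2.22 (FDR 1.75e-12), and the adaptor Pik3ap1 had -1.05 (FDR 3.28e-05) with 8 of 13 regions lower, in the authors' deposited table. Gab2, a docking protein, had -1.38 at its lowest FDR but also 2 higher regions, up to 0.84, in the authors' deposited table. Of 6 further lipid phosphatases, 2 were lower, 1 higher and 3 not called in the authors' deposited table. Inpp5b, another inositol 5-phosphatase, was the higher one, with 2.06 (FDR 2.77e-20) and 8 of 13 regions higher in the authors' deposited table. Peaks over Inpp5b covered 18026, 20281 and 23479 bp in KO, against 15378, 16856 and 15009 bp in WT, without overlap. Inppl1, which encodes SHIP2, had -1.31 (FDR 5.15e-06) in the authors' deposited table.

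Of 7 genes for AKT and the kinases that activate it, 5 were lower and none higher in the authors' deposited table, against the same 67.5% lower over all genes. Mtor was lower at 4 of 4 regions (-1.38 at the lowest FDR, 6.24e-07), and Mlst8, which encodes a subunit of both mTOR complexes, at 3 of 3 (-1.39, FDR 2.46e-08), in the authors' deposited table. None of 3 AKT phosphatase genes was called, with -0.68 for Phlpp2, -0.39 for Ppp2ca and -0.76 for Ppp2cb in the authors' deposited table. Downstream, the authors' deposited table had 6 of 10 genes lower and 2 higher, where 67.5% and 11.8% of all genes were. Rheb, the activator of mTORC1, had -1.22 (FDR 2.34e-06), and Gsk3b, an AKT substrate kinase, had -1.61 (FDR 2.75e-07) with 2 further regions higher (up to 0.75), in the authors' deposited table. Foxo1, a transcription factor that AKT holds out of the nucleus, had -0.99 and 1 region higher at 1.07, in the authors' deposited table. The kinase genes Sgk1, with 0.94 (FDR 0.000742), and Rps6kb1, with 0.72 (FDR 0.00859), were the higher ones in the authors' deposited table.

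The genes most like Inpp4b and Inpp5d in their pattern over the 6 libraries were taken from 1689 genes with at least 5 tested regions, by the root mean square difference of log2 covered bp per kb of gene. For Inpp4b, with 128, 154 and 135 bp per kb in KO against 222, 203 and 213 bp per kb in WT, they were Mapkapk3 (0.0863), Pskh1 (0.093) and Filip1l (0.0997). For Inpp5d, with 98.8, 95.8 and 96.7 bp per kb in KO against 64.9, 66.2 and 67.8 bp per kb in WT, they were Sertad2 (0.127), Homer1 (0.146) and Manba (0.166). The nearest gene to Inpp4b, Mapkapk3, had 129, 161 and 124 bp per kb in KO, against 219, 183 and 204 bp per kb in WT.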

How the data were processed

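The libraries were made by RELACS, in which nuclei are barcoded before samples are pooled for ChIP-seq, with 5 µg of antibody per the labels' protocols. Tools in the submitters' processing notes are MACS2 2.2.6, Bowtie2 2.3.5.1, cutadapt 2.8, deepTools 3.3.2 and bcl2fastq 2.20.0.422. Builds in the submitters' processing notes are GRCm38 and mm10. How the differential table was scaled and tested, and how input was used by the authors, was not given in the sources used here. Input, with 6 libraries, was not analysed.

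The authors deposited 2 peak lists per ChIP library, on paired-end fragments (used unless stated) and on single reads, called per library. Columns the authors deposited for a peak are the score, the fold enrichment as a linear ratio, and the -log10 of the p-value and of the q-value. The authors' deposited table holds a log2 fold change of the best 150 bp window, a p-value, an FDR and window counts for 40909 regions, without values for single libraries, so its calls stand as deposited and could not be recomputed without a library. Spans of 24128 regions were listed, 16571 were rebuilt from the single-read peaks (98.8% of listed spans were rebuilt exactly), 208 were placed by their best window and 2 were not located.

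Peak heights were solved from the deposited fold and -log10 p within 0.01 for 99.9% to 100% of peaks per library. Heights of WT replicates 1 and 2 were whole fragments times 0.89 and 0.922, and times 1 elsewhere. The lowest background shared by 50 peaks was taken as mean coverage. Tested on simulated data, 100% of 400 peaks were recovered. Counting error is not included, and depth as read numbers is unknown. The coverage scaling offset rests on 2626 regions with a summit within 150 bp of the best window in every library.

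Library values were set against each other with an exact permutation test of mean differences (two-sided), whose lowest p is 0.1 with 3 libraries a side. Calls in the table used an FDR under 0.05. The members, lists and tests were chosen with earlier results of these data known. The text names the 8 genes, their regions of lowest FDR, lowest and highest value and nearest the gene ends, and up to 2 genes of lowest FDR and any gene with a higher region per role list. Start heights, Inpp4b stretches, the Pik3r5 block, other regions of note and cover per Mb were added after values were seen. Alternatives were single-read peaks, peaks whose -log10 q reached 5, equal numbers (39264) of peaks, the gene span alone, leaving out each library, a replicate block, an FDR of 0.01, a log2 fold change of at least 1, coverage scaling, 50% overlap and width weights. Some listed genes are counted but not reported here by name. Gene spans and promoters are from RefSeq GRCm38.p6 without exons. Analyses used Python 3.11.15, numpy 2.4.6, pandas 2.3.3, scipy 1.17.1 and matplotlib 3.10.9.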

Additional observations from a re-analysis of the deposited data

How the results depend on the processing

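Of 157 alternative values, 4 reversed and 22 counts or medians moved. Of the 96 for covered bp, 93 kept their sign, whatever their size, since no p under 0.1 is possible. The reversals were the Pik3r1 median log2 fold change at coverage scaling (0.15), and the difference in covered bp of Pik3r1 without KO replicate 1 (77.7 bp) and of Pik3r1 and Akt1 per Mb covered in the library (19.0 and 4.82 bp per Mb). The cause was not tested. Member regions called lower in KO numbered 28 at coverage scaling with a log2 fold change of at least 1, and those called higher numbered 1 with that fold change and the authors' scaling. Regions with a peak in no KO and every WT library numbered 14 with 50% overlap, 17 without KO replicate 2, and 9 to 17 over all such omissions. The reverse pattern ranged over 3 to 4. The median over member regions was -0.68 at coverage scaling and -1.12 weighted by width. Leaving out each library gave KO minus WT differences of -64679 to -54459 bp for Inpp4b, 3299 to 3476 bp for Inpp5d, -5657 to -3960 bp for Pik3cd, -1502 to 77.7 bp for Pik3r1, -6418 to -4462 bp for Pik3r5, -3017 to -1812 bp for Pik3ip1, -473 to -243 bp for Akt1 and 427 to 852 bp for Phlpp1. Pik3r5 differed by -3179 bp with single-read peaks and -2938 bp over the gene span alone, against -5542 bp in the main setting. Akt1 differed by -898 bp with single-read peaks and -9 bp over the gene span alone, against -328 bp. With single-read peaks Inpp4b differed by -34227 bp against -58790 bp, Inpp5d by 998 bp against 3391 bp and Phlpp1 by 13.3 bp against 656 bp. Pik3r1 differed by -2066 bp for peaks with a -log10 q of at least 5, against -697 bp. Height deviations of same-numbered libraries correlated at 0.00185, -0.011 and 0.0383 over 17958 regions, against -0.0535 to 0.0508 for libraries of different numbers. These correlations show no pairing by replicate number in the heights. Pairing by mouse or culture cannot be decided from them. With a replicate block the differences were unchanged and the exact sign-flip p was 0.25 for Inpp4b, Inpp5d, Pik3cd, Pik3r5, Akt1 and Phlpp1 (the smallest possible), 0.5 for Pik3ip1 and 0.75 for Pik3r1. Mean coverage was lower in KO, and its part in peak cover was not tested. The heights carry counting error that was not estimated.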
